A study of Mus musculus with 12 samples.

Results

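The genes described here encode the enzymes that make cholesterol and fatty acids, together with the regulators of that synthesis and a sterol carrier. Of 33 genes given as a list, 18 belong to the sterol branch, 9 to the fatty acid branch and 6 to regulation or transport. Each was taken as the probe set that carries its symbol alone, with the higher mean over the 12 arrays chosen where a gene had more than 1. In all 32 of the 33 had such a probe set, out of 19938 genes on the array. Acat2 had none and was dropped. Another, the acetate-activating enzyme gene Acss2, was too dim to test, with values between 5.12 and 5.99 on the log2 scale and 2 of 12 arrays at or above the array's median. The other 31 members, 17 sterol, 8 fatty acid and 6 regulator or transport genes, were among the 11206 genes tested.

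RNA came from mouse germinal centre (GC) B cells, the dividing and mutating B cells of an immune response. SwHEL B cells, whose antigen receptor binds hen egg lysozyme, carried the CD45.1 marker and had been given to C57BL/6J (CD45.2) hosts, which were then immunized with the lysozyme mutant HEL3x on sheep erythrocytes. All 4 groups share this transfer, this antigen, the female sex, the spleen and day 10 after immunization, and all were sorted as donor cells (CD45.1+, CD45.2-) that were IgG1+ and CD38 low. The groups are light zone cells of high affinity (LZ_high) and of low affinity (LZ_low), gated as CD86 high and CXCR4 low, and dark zone cells of high affinity (DZ_high) and of low affinity (DZ_low), gated as CXCR4 high and CD86 low, with 3 arrays each. The labels give neither the affinity gate, nor the animals' age, nor whether arrays stand for different animals or pools. The p-values therefore rest on a spread between samples that may be technical. Replicate numbers 1 to 3 mark 3 matched sets, each with 1 array of every group.

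Cholesterol is built from acetyl-CoA through mevalonate, isoprenoid diphosphates, squalene and lanosterol, and fatty acids from the same acetyl-CoA through malonyl-CoA, elongation and desaturation. Both branches are switched on by the sterol regulatory element-binding proteins (SREBPs), which SCAP carries out of the endoplasmic reticulum when sterols are scarce and INSIG proteins hold back when they are plentiful. Proliferating B cells need both products for new membrane, and the branch point at farnesyl diphosphate also feeds protein prenylation.

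The median log2 value of an array was 5.57 to 5.72. Matched set 3 was separated from sets 1 and 2 by the first principal component (40.1% of the variance), on which its 4 arrays scored 12.5 to 52.9 and the others -26.4 to -6.71. Defining markers of B cells averaged 10.58 to 11.02 and those of GC B cells 9.45 to 10.1 in every array. Of 5 sort genes 3 were tested, and 2 of these were above 0 in LZ minus DZ, against 49.0% of all tested genes. The sort gene Cd86 was higher in LZ cells by 1.13 ± 0.11 (SE, limma adjusted p = 0.00138). Among macrophage markers 4 of 10 passed the filter, with a median LZ minus DZ difference of 0.13 and 4 of 4 above 0, and the averages of the list ran from 4.85 to 5.58 in LZ arrays, against 4.96 to 5.23 in DZ arrays. Markers of plasma cells were mostly lower in LZ cells (median -0.30, 4 of 6 tested, 3 of 4 below 0), with averages of 6.44 to 6.99 in LZ arrays, against 6.50 to 7.14 in DZ arrays. In that list Jchain, the joining chain gene of secreted antibody, fell by 0.97 ± 0.17 (SE; limma adjusted p = 0.0427). Of the follicular dendritic and stromal cell list (median -0.01, 5 of 8 tested) Cr2, a complement receptor gene that B cells also express, rose by 1.02 ± 0.18 (adjusted p = 0.0427). Markers of T cells had 2 of 8 members tested (median -0.11) and those of granulocytes 6 of 8 (median -0.04). Averages of the T cell list ran from 4.66 to 6.17 in LZ arrays, against 4.83 to 5.69 in DZ arrays. Those of the granulocyte list ran from 5.28 to 6.83 in LZ arrays, against 5.34 to 7.01 in DZ arrays. Both lists varied within groups, T cell averages from 4.80 to 6.17 in LZ_low arrays and granulocyte averages from 5.34 to 7.01 in DZ_high arrays. Cell division genes of G2 and M phase were mostly lower in LZ cells (median -0.42). Of these, 22 of 23 were below 0 and 1 above, where 49.0% of all tested genes were above 0. By limma 4 of the 23 were called lower, where 0.419% of all tested genes were called in either direction. The part of macrophages, plasma cells, follicular dendritic cells, T cells, granulocytes or the cell cycle in the results below was not tested. In sorted bulk RNA fewer cells of a type and less RNA per cell cannot be told apart.

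The first comparison asks how light zone cells differ from dark zone cells. Most sterol synthesis genes had higher values in LZ cells, while the fatty acid branch was split. The median difference on the log2 scale was 0.42 over the 17 sterol genes, 0.21 over the 8 fatty acid genes and 0.30 over the 6 regulator or transport genes, against -0.0038 over all tested genes. The difference was above 0 for 16 of 17 sterol genes, 5 of 8 fatty acid genes and 6 of 6 regulator or transport genes, against 49.0% of all tested genes. When 1 array was left out, the sterol median ranged from 0.33 to 0.52 and the regulator median from 0.22 to 0.40. The fatty acid median ranged from 0.07 without LZ_low replicate 3 to 0.35 without DZ_high replicate 3, with 0.08 without DZ_low replicate 2, 0.10 without DZ_high replicate 1 and 0.32 without LZ_low replicate 2, and it was 0.14 when LZ_high replicate 3 was dropped. The LZ minus DZ difference was above 0 in each of the 6 matched pairs (an LZ and a DZ array of the same affinity and set) for 14 of the 31 members, against 4.54% of all tested genes. The 14 are Hmgcs1, Fdps, Fdft1, Sqle, Cyp51, Msmo1, Nsdhl, Sc5d and Dhcr7 in the sterol branch, Acly, Acaca and Scd1 in the fatty acid branch, and the regulators Srebf2 and Insig1.

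Without a term for the matched set, no single member passed the test over all genes. By limma's moderated test with Benjamini-Hochberg adjustment over 11206 genes, 0 of 31 members had an adjusted p below 0.05, where 0.419% of all tested genes did. At an unadjusted p below 0.05, 14 members were higher in LZ cells (10 sterol, 2 fatty acid, 2 regulator genes), against 4.10% of all tested genes, and 1 member, Fads2, was lower, against 2.95%. With the matched set as a replicate block 2 members passed, Msmo1 and Scd1, where 1.20% of all tested genes passed. Neighbouring members share regulators and each contrast uses the same 12 arrays, so these counts are not counts of independent events.

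**Figure D1:**
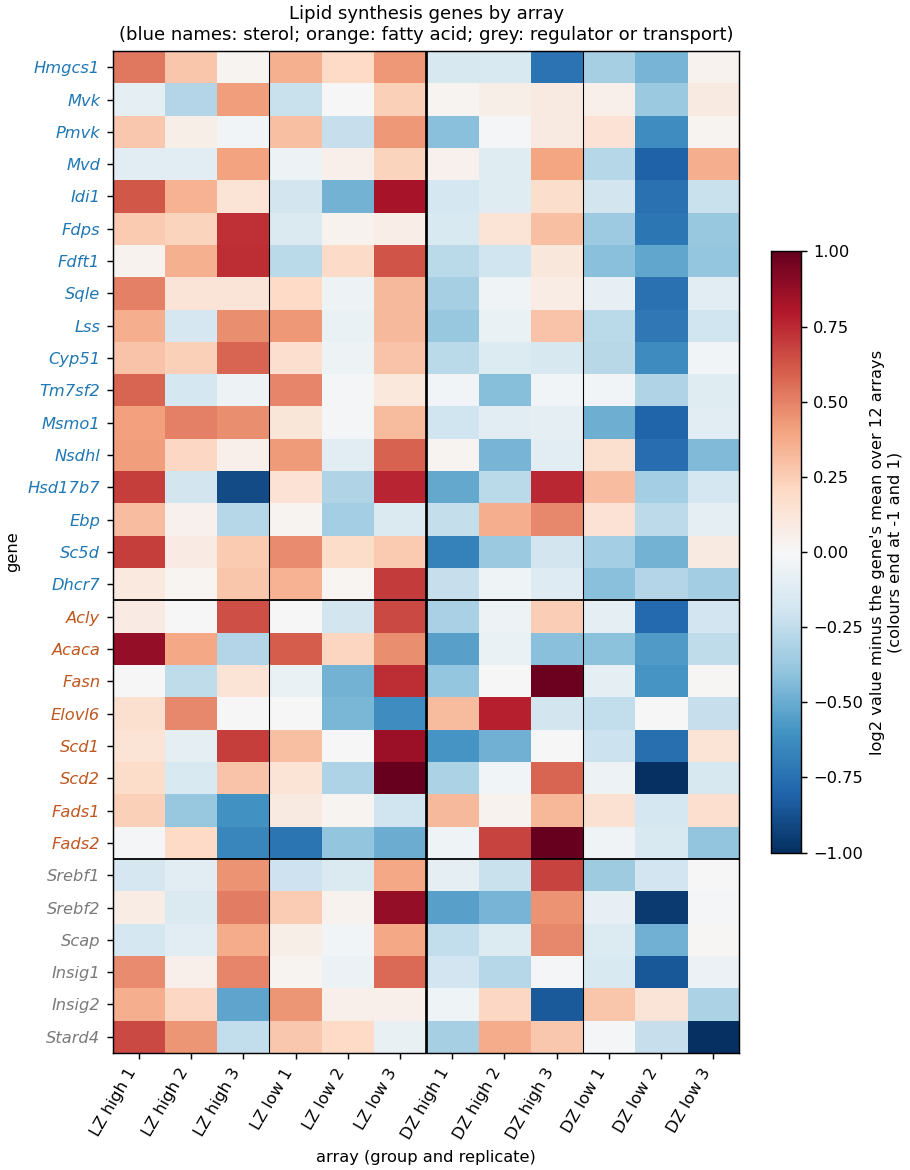
Each row is a member gene and each column an array, LZ_high, LZ_low, DZ_high and DZ_low in order, coloured by the gene's log2 value minus its mean over the 12 arrays (colours end at -1 and 1). Most sterol rows lie above their mean in LZ arrays and below it in DZ arrays. The exceptions are LZ_low replicate 2 (sterol median -0.02) and DZ_high replicate 3 (0.09). DZ_low replicate 2 has the lowest sterol and fatty acid medians, and Elovl6, Fads1 and Fads2 do not follow the sterol rows.

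Promoter sequence was compared because most sterol genes differed in 1 direction and share known regulators. RefSeq promoters (GRCm38.p6) were found for 24 of the 31 tested members, and the 250 bases before each annotated start were searched on both strands for 10 letter strings, of which 3 are described here. The CCAAT string (the CCAAT box) was present before 14 of 14 sterol genes, 1 of 5 fatty acid genes (Fasn) and 4 of 5 regulators (not Scap), against 37.49% of all 27025 genes with a promoter and 39.68% of the 8970 tested ones. The string GGGCGG (the GC box) was present before 13 of 14 sterol genes (not Pmvk), 2 of 5 fatty acid genes and 5 of 5 regulators, against 35.36% of all genes and 62.12% of tested ones. TCACNCCA, the core of the classical sterol regulatory element, was present before 2 of 14 sterol genes (Hmgcs1 and Msmo1), 0 of 5 fatty acid genes and 1 of 5 regulators (Srebf2), against 4.204% of all genes and 3.902% of tested ones. The other 7 strings were longer or shorter forms of the sterol element and E-box-like forms, and their shares do not enter the text. A gene with several annotated starts was counted when any of them held the string. Letters that match are a description of the sequence, not a binding site, and their part in the expression differences was not tested.

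The promoters of 6 members are printed 5′ to 3′, with matches to the 3 strings on either strand in capitals. Hmgcs1 at chr13:119690101-119690350 (plus strand) and Msmo1 at chr8:64733579-64733828 (minus strand) are shown for the sterol element core beside CCAAT and GC boxes. Cyp51 at chr5:4104698-4104947 (minus strand) and Sc5d at chr9:42264301-42264550 (minus strand) are shown as sterol genes higher in LZ cells whose window holds no such core. Insig1 at chr5:28071162-28071411 (plus strand) stands for the regulators, and Fads2 at chr19:10101504-10101753 (minus strand) for a gene with the opposite difference, whose window holds 1 GC box and no CCAAT.
Hmgcs1: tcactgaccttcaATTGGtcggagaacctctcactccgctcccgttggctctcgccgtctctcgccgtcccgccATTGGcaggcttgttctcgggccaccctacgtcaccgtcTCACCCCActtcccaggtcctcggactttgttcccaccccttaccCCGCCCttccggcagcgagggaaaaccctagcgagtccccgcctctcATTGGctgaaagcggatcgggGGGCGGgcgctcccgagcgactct
Msmo1: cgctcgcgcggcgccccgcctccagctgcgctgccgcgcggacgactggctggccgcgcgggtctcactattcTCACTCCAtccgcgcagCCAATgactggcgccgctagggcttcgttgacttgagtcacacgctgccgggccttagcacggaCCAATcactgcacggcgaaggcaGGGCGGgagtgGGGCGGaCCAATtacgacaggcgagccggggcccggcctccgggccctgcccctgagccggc
Cyp51: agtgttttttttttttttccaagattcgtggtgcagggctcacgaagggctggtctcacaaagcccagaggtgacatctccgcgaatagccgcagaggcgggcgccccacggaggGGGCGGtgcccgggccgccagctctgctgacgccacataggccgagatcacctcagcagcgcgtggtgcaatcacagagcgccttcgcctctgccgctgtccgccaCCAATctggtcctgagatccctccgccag
Sc5d: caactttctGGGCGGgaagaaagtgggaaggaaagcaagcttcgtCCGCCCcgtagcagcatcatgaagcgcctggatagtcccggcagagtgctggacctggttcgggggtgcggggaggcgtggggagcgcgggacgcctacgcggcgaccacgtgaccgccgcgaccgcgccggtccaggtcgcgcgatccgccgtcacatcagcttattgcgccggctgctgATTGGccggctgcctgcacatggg
Insig1: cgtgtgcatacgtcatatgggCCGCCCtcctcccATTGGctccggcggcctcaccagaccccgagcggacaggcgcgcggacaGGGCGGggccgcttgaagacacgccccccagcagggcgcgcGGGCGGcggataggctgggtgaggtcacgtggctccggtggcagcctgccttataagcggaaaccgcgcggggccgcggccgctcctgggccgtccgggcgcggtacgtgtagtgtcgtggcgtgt
Fads2: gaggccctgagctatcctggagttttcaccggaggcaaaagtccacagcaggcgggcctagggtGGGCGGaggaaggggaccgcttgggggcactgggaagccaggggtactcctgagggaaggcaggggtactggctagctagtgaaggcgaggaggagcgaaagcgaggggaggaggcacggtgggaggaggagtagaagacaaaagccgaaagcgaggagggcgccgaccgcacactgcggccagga

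**Figure D2:**
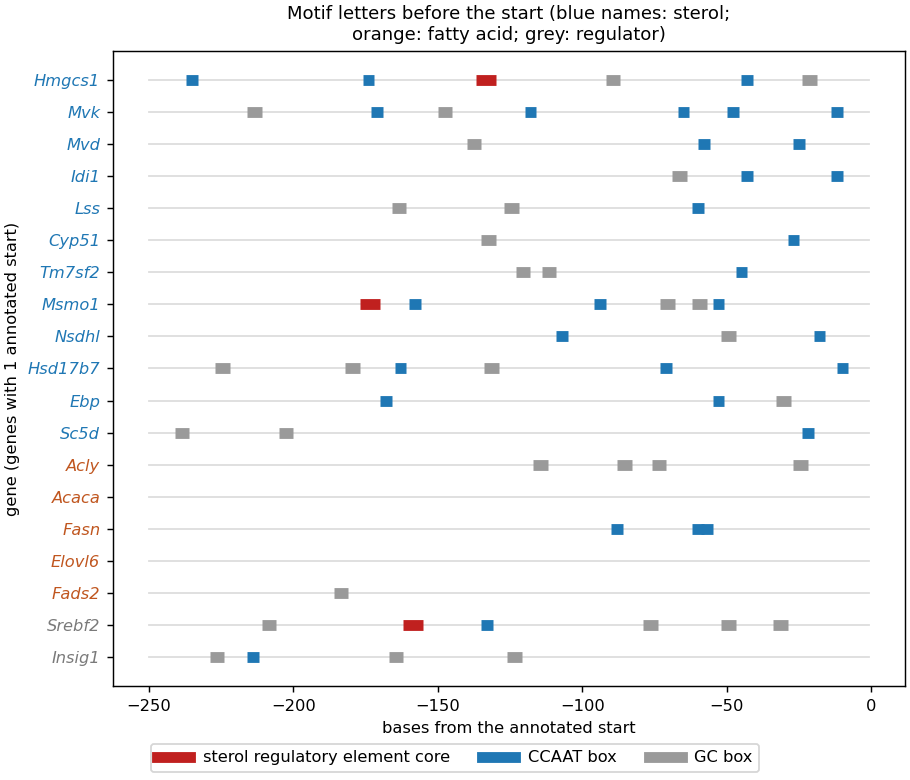
Matches to the 3 strings in the 250 bases before the start, for the 19 members with 1 annotated start, against distance from the start in bases. Each of the 12 sterol rows shown carries at least 1 CCAAT match, Acaca and Elovl6 carry no match of any kind, and the sterol element core lies before Hmgcs1, Msmo1 and Srebf2.

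At the head of the sterol branch, Hmgcs1 encodes the cytosolic synthase that makes HMG-CoA, the substrate of the step committed to mevalonate. Its log2 values were 9.95, 9.70 and 9.45 in LZ_high arrays and 9.78, 9.62 and 9.86 in LZ_low arrays, against 9.27, 9.27 and 8.68 in DZ_high arrays and 9.09, 8.96 and 9.46 in DZ_low arrays. The LZ arrays lay above the DZ arrays except that LZ_high replicate 3 was level with DZ_low replicate 3. The difference was 0.61 ± 0.15 (SE, n = 3 arrays per group; 1.52-fold; limma adjusted p = 0.158, 0.11 with the replicate block). The mevalonate and phosphomevalonate kinase genes Mvk (0.02) and Pmvk (0.27) and the decarboxylase gene Mvd (0.13) had smaller differences, and none of these reached an unadjusted p of 0.05. Mvk ran from 6.46 to 7.16 (median 6.70) in LZ arrays, against 6.38 to 6.84 (median 6.80) in DZ arrays, which is complete overlap. Idi1, which isomerises isopentenyl diphosphate, had a difference of 0.42 ± 0.21 (adjusted p = 0.794), and a second probe set of that gene gave 0.45. Without LZ_low replicate 3 it was 0.23.

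Fdps makes farnesyl diphosphate, the last shared precursor of sterols and prenyl groups. It had 9.14, 9.09 and 9.61 in LZ_high arrays and 8.73, 8.91 and 8.94 in LZ_low arrays, against 8.72, 9.01 and 9.17 in DZ_high arrays and 8.51, 8.15 and 8.49 in DZ_low arrays. Within each zone the 3 high affinity arrays lay above the 3 low affinity ones, and LZ lay above DZ in 6 of 6 matched pairs. The zones overlapped across affinities, and DZ_high replicates 2 and 3 lay above every LZ_low array. The zone difference was 0.39 ± 0.13 (adjusted p = 0.408). Fdft1, squalene synthase, commits farnesyl diphosphate to sterols. Its values were 8.90, 9.22 and 9.60 in LZ_high arrays and 8.59, 9.06 and 9.49 in LZ_low arrays, against 8.59, 8.67 and 8.98 in DZ_high arrays and 8.45, 8.35 and 8.48 in DZ_low arrays. The 3 DZ_low arrays were close together and lay below every LZ array. LZ_high replicate 1 lay among the DZ_high arrays, and LZ_low replicate 1 was level with the lowest of them. The difference was 0.56 ± 0.17 (adjusted p = 0.304, 0.0629 with the block), and 0.59 by the gene's second probe set. Squalene epoxidase (Sqle, 0.41 ± 0.15) and lanosterol synthase (Lss, 0.45 ± 0.17), of which the second closes the sterol rings, had adjusted p-values of 0.501 and 0.525.

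The smallest p among the members belonged to Msmo1, the monooxygenase that removes methyl groups from the sterol ring. Msmo1 had 9.34, 9.43 and 9.39 in LZ_high arrays and 9.05, 8.91 and 9.24 in LZ_low arrays, against 8.73, 8.81 and 8.83 in DZ_high arrays and 8.43, 8.12 and 8.82 in DZ_low arrays. The lowest LZ array, LZ_low replicate 2, was still above the highest DZ array, DZ_high replicate 3, and the 3 LZ_high arrays were nearly equal. The difference was 0.60 ± 0.13 (1.52-fold), with an adjusted p of 0.08 by limma and 0.0376 with the replicate block. Dhcr7, the reductase of the last step to cholesterol, was the other member whose LZ and DZ arrays did not overlap. Such separation upward in LZ was found in 0.535% of all tested genes. Dhcr7 had 6.77, 6.70 and 6.95 in LZ_high arrays and 7.02, 6.70 and 7.38 in LZ_low arrays, against 6.45, 6.64 and 6.55 in DZ_high arrays and 6.26, 6.38 and 6.33 in DZ_low arrays. The highest value was that of LZ_low replicate 3, and the margin between the zones was narrow. Its difference was 0.49 ± 0.12 (adjusted p = 0.18, 0.101 with the block).

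Cyp51, the lanosterol demethylase, had 9.36, 9.32 and 9.67 in LZ_high arrays and 9.25, 9.03 and 9.36 in LZ_low arrays, against 8.81, 8.95 and 8.92 in DZ_high arrays and 8.81, 8.45 and 9.06 in DZ_low arrays. Only DZ_low replicate 3 reached into the LZ range. The difference was 0.50 ± 0.13 (adjusted p = 0.18, 0.0563 with the block). Sc5d, the sterol desaturase that acts before the last reduction, had 9.03, 8.43 and 8.60 in LZ_high arrays and 8.81, 8.53 and 8.60 in LZ_low arrays, against 7.66, 7.97 and 8.16 in DZ_high arrays and 8.005, 7.87 and 8.43 in DZ_low arrays. DZ_high replicate 1 was lowest and LZ_high replicate 1 highest, and the zones met at 8.43. Its difference of 0.65 ± 0.15 was the largest of the sterol branch (adjusted p = 0.126, 0.0693 with the block). Of the other late enzymes, the dehydrogenase gene Nsdhl had a difference of 0.53 ± 0.18 and the reductase gene Tm7sf2 one of 0.31 ± 0.16 (adjusted p = 0.432 and 0.802). Hsd17b7, a ketosteroid reductase gene, ran from 6.63 to 8.28 (median 7.50) in LZ arrays, against 7.01 to 8.27 (median 7.30) in DZ arrays, a difference of 0.07 ± 0.31. The isomerase gene Ebp was the 1 sterol member below 0, at -0.13 ± 0.16, and was 0.0075 without matched set 3.

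**Figure D3:**
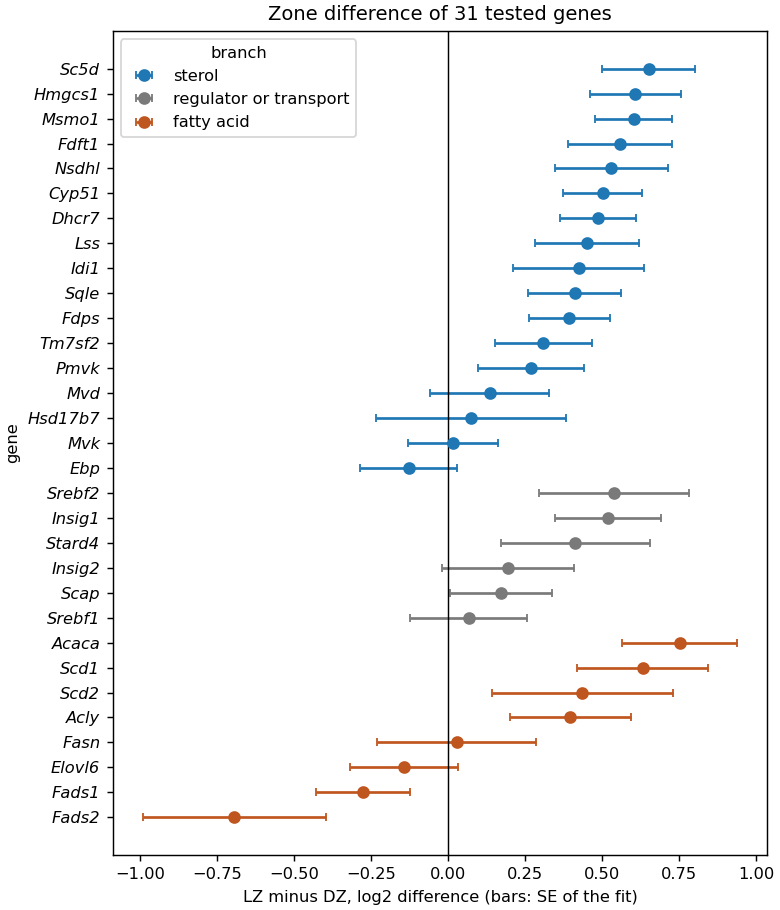
The log2 difference LZ minus DZ of each tested member with its standard error, ordered by size within each branch. Sterol points run from -0.13 (Ebp) to 0.65 (Sc5d), with 1 below 0, while the fatty acid points spread from -0.70 (Fads2) to 0.75 (Acaca).

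The fatty acid branch did not share a direction. Acaca, acetyl-CoA carboxylase, which makes malonyl-CoA and commits carbon to fatty acids, had 8.65, 8.15 and 7.47 in LZ_high arrays and 8.37, 7.98 and 8.23 in LZ_low arrays, against 7.22, 7.70 and 7.35 in DZ_high arrays and 7.35, 7.20 and 7.51 in DZ_low arrays. LZ_high replicate 3 lay within the DZ range and the other 5 LZ arrays lay above every DZ array. The difference was 0.75 ± 0.19 (1.68-fold; adjusted p = 0.171), the largest of all 31 members, and a second, dimmer probe set gave 0.86. Without LZ_high replicate 3 it was 0.91 and passed (adjusted p = 0.0263). Acly, which makes cytosolic acetyl-CoA from citrate for both branches, had a difference of 0.40 ± 0.20 (adjusted p = 0.784; higher in 6 of 6 pairs). Fasn, the synthase itself, ran from 6.80 to 8.01 (median 7.24) in LZ arrays, against 6.68 to 8.25 (median 7.22) in DZ arrays, a difference of 0.03 ± 0.26.

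The desaturase genes had differences of opposite sign. Scd1, a stearoyl-CoA desaturase that makes monounsaturated fatty acids, had 11.18, 10.95 and 11.73 in LZ_high arrays and 11.35, 11.04 and 11.90 in LZ_low arrays, against 10.46, 10.57 and 11.05 in DZ_high arrays and 10.83, 10.29 and 11.18 in DZ_low arrays. The arrays of set 3 were highest in every group, so the zones overlapped across sets, yet LZ was above DZ in 6 of 6 pairs. The difference was 0.63 ± 0.21 (1.55-fold), with an adjusted p of 0.408, and of 0.0212 once the matched set was a block. Its close paralog Scd2 had 0.43 ± 0.29 (adjusted p = 0.963), with 0.23 without LZ_low replicate 3 and 0.23 without DZ_low replicate 2, and probes of such paralogs may read each other's RNA. Fads2, which starts the desaturation of polyunsaturated fatty acids, had 7.20, 7.42 and 6.57 in LZ_high arrays and 6.49, 6.82 and 6.72 in LZ_low arrays, against 7.18, 7.89 and 9.26 in DZ_high arrays and 7.18, 7.07 and 6.82 in DZ_low arrays. DZ_high replicate 3 stood far above the other 11 arrays. The difference was -0.70 ± 0.30 (adjusted p = 0.639), and without DZ_high replicate 3 it was -0.41. Fads1, the next desaturase of that route, ran from 5.71 to 6.55 (median 6.22) in LZ arrays, against 6.13 to 6.64 (median 6.47) in DZ arrays, a difference of -0.28 ± 0.15, and the elongase gene Elovl6 had -0.14 ± 0.18.

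Among the regulators, Srebf2 encodes the SREBP that acts mainly on sterol genes. It had 8.88, 8.66 and 9.32 in LZ_high arrays and 9.06, 8.84 and 9.69 in LZ_low arrays, against 8.26, 8.34 and 9.26 in DZ_high arrays and 8.73, 7.85 and 8.79 in DZ_low arrays. Set 3 was highest in every group, and within each set and affinity the LZ array was above the DZ array. The difference was 0.54 ± 0.24 (adjusted p = 0.702, 0.113 with the block). Srebf1, the SREBP gene with the larger part in fatty acid synthesis, had 6.76, 6.82 and 7.38 in LZ_high arrays and 6.73, 6.79 and 7.32 in LZ_low arrays, against 6.84, 6.71 and 7.61 in DZ_high arrays and 6.57, 6.74 and 6.93 in DZ_low arrays. Its zones overlapped throughout, with a difference of 0.07 ± 0.19.

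Insig1, which retains SCAP and is itself an SREBP target, had 8.96, 8.54 and 8.98 in LZ_high arrays and 8.52, 8.43 and 9.06 in LZ_low arrays, against 8.29, 8.20 and 8.47 in DZ_high arrays and 8.34, 7.64 and 8.43 in DZ_low arrays. LZ was higher in every pair, and LZ_low replicate 2 alone lay below the highest DZ array. The difference was 0.52 ± 0.17 (1.43-fold; adjusted p = 0.396, 0.0733 with the block). Its paralog Insig2, which is not controlled by SREBPs in the same way, had 8.33, 8.17 and 7.44 in LZ_high arrays and 8.41, 8.02 and 8.02 in LZ_low arrays, against 7.93, 8.18 and 7.13 in DZ_high arrays and 8.25, 8.10 and 7.65 in DZ_low arrays. Set 3 was lowest in 3 of the groups and level with set 2 in LZ_low, and the difference was 0.19 ± 0.22. Scap, the escort of SREBPs, had 7.37, 7.44 and 7.92 in LZ_high arrays and 7.61, 7.52 and 7.93 in LZ_low arrays, against 7.30, 7.41 and 8.03 in DZ_high arrays and 7.41, 7.06 and 7.56 in DZ_low arrays. The zones overlapped, with a difference of 0.17 ± 0.17. Stard4, a soluble sterol carrier, had 8.84, 8.62 and 7.93 in LZ_high arrays and 8.45, 8.38 and 8.10 in LZ_low arrays, against 7.85, 8.55 and 8.45 in DZ_high arrays and 8.16, 7.95 and 6.88 in DZ_low arrays. DZ_low replicate 3 was the lowest array, and the difference of 0.41 ± 0.24 was 0.22 without it.

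**Figure D4:**
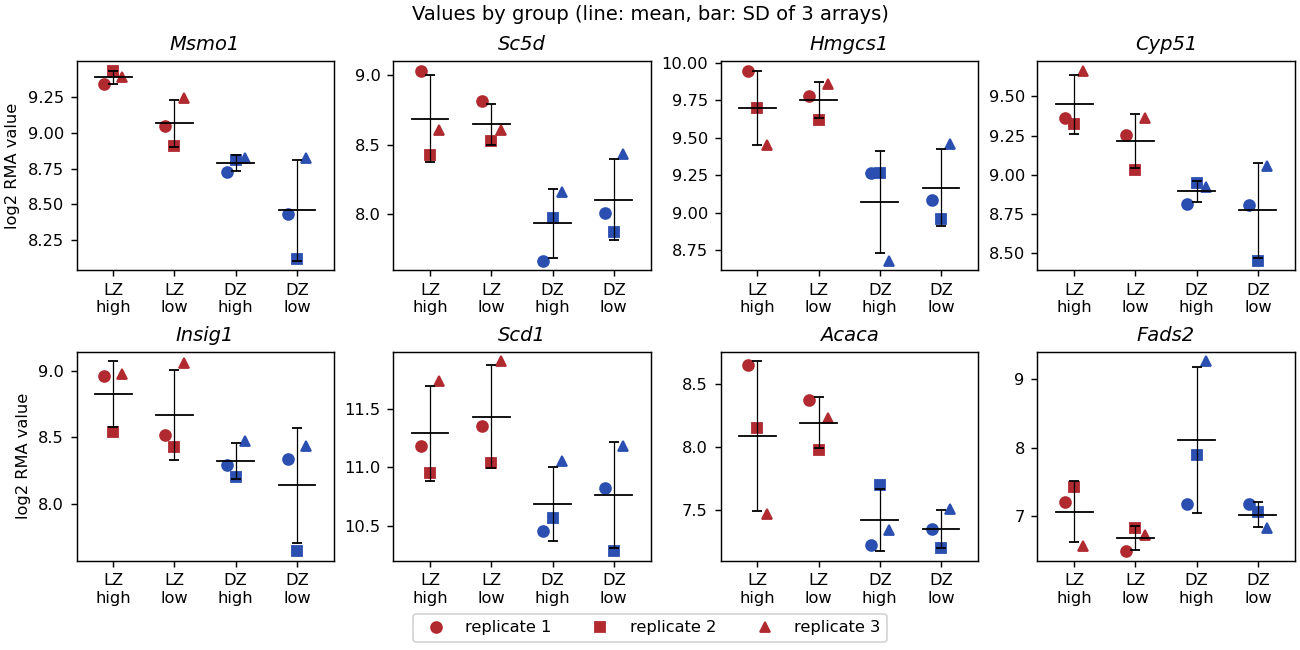
Log2 values of Msmo1, Sc5d, Hmgcs1, Cyp51, Insig1, Scd1, Acaca and Fads2 in LZ_high, LZ_low, DZ_high and DZ_low arrays, 1 point per array with a marker shape for each matched set, a line at the group mean and a bar of 1 SD either way. Msmo1 separates the zones, Scd1 shows the higher values of set 3 in each group, and Fads2 shows the single high DZ_high array.

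The branches were then followed through the matched sets, since set 3 stood apart from the others. The sterol median of LZ minus DZ was 0.61, 0.16 and 0.18 at high affinity in sets 1, 2 and 3, and 0.26, 0.65 and 0.42 at low affinity. It was thus above 0 in each of the 6 pairs. Over all tested genes the medians of the same sets were 0.08, -0.02 and -0.0027 at high affinity and -0.01, 0.03 and -0.01 at low affinity. The fatty acid median was 0.40, -0.19 and -0.09 at high affinity and 0.14, 0.40 and 0.72 at low affinity, and changed sign between sets at high affinity. By array, the median deviation of the sterol genes from their means was lowest in DZ_low replicate 2 (-0.62) and highest in LZ_high replicate 1 (0.36). That of the fatty acid genes was lowest in the same DZ_low array (-0.58) and highest in LZ_low replicate 3 (0.56).

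Each affinity was then taken alone. In high affinity cells the median LZ minus DZ difference was 0.31 for sterol genes, -0.03 for fatty acid genes and 0.21 for the regulators. In low affinity cells it was 0.47, 0.40 and 0.44 for the same classes. When 1 array was left out, the fatty acid median ranged from -0.13 (without DZ_high replicate 1) to 0.22 (without DZ_high replicate 3) at high affinity and from 0.13 (without LZ_low replicate 3) to 0.62 (without LZ_low replicate 2) at low affinity, where it was 0.20 without DZ_low replicate 2. The sterol median at low affinity was 0.28 without DZ_low replicate 2. That of the regulators went down to 0.06 at high affinity, without DZ_high replicate 1, and to 0.24 at low affinity, without DZ_low replicate 2. Sc5d (0.76 ± 0.21), Msmo1 (0.60 ± 0.18) and Cyp51 (0.56 ± 0.18) had the smallest p-values at high affinity. At low affinity they were Dhcr7 (0.71 ± 0.17), Msmo1 (0.61 ± 0.18) and Acaca (0.84 ± 0.26). Fads2 and Fads1 had differences at high affinity of -1.05 ± 0.42 and -0.48 ± 0.22. Without DZ_high replicate 3 the value of Fads2 was -0.47. That of Fads1 was -0.30 without LZ_high replicate 3 and -0.72 without LZ_high replicate 1.

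By limma 0 of 31 members passed at either affinity, where 0.0357% of all tested genes passed at each. The smallest adjusted p of a member was 0.608 at high and 0.373 at low affinity. At an unadjusted p below 0.05, 5 members were higher in LZ cells at high affinity (2.61% of all tested genes) and 12 at low affinity (2.92%), and 2 were lower at high affinity (1.92%). These counts do not show that the affinities differ. In the interaction, which subtracts the zone difference at low affinity from that at high affinity, 0 of 31 members and 0% of all tested genes passed, and the smallest adjusted p of a member was 1. The interaction was below 0 for 26 of 31 members, against 50.6% of all tested genes, with medians of -0.12, -0.31 and -0.31 for sterol, fatty acid and regulator genes. When 1 array was left out, these medians ranged from -0.21 to 0.01 for sterol genes (highest without DZ_low replicate 2), from -0.50 (without LZ_high replicate 1) to -0.13 (without DZ_high replicate 3) for fatty acid genes and up to -0.11 (without DZ_high replicate 3) for regulator genes. Above 0 were 5 of 31 members, and 14 without DZ_low replicate 2, 11 without LZ_low replicate 3, 10 without DZ_high replicate 3, 9 without LZ_high replicate 3 and 3 without DZ_low replicate 3.

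The second comparison asks how high affinity cells differ from low affinity cells of the same zone. In LZ cells the sterol branch had a median of 0.0026, which was 0.16 without LZ_high replicate 2 and 0.16 without matched set 3. By set the sterol median was 0.17, 0.17 and -0.14 in sets 1, 2 and 3. The fatty acid branch had a median of -0.10, which was 0.21 without LZ_low replicate 3 and 0.14 without matched set 3. The difference was above 0 for 15 of 31 members, against 49.7% of all tested genes. Without LZ_low replicate 3 it was above 0 for 25 of 31 members, and the share of all tested genes in that fit is not given here. No gene on the array passed, so 0 of 31 members stands beside 0%. At an unadjusted p below 0.05, 2 members were higher at high affinity (1.75% of all tested genes) and 0 were lower (2.41%). These 2 are Fdps, whose arrays are given above, with 0.42 ± 0.19 (limma adjusted p = 0.999; 0.25 without LZ_high replicate 3), and Elovl6, the elongase that lengthens palmitate. Elovl6 had 6.06, 6.38 and 5.91 in LZ_high arrays, against 5.90, 5.45 and 5.28 in LZ_low arrays, and 6.22, 6.68 and 5.72 in DZ_high arrays, against 5.66, 5.90 and 5.67 in DZ_low arrays. The LZ groups barely avoided each other and the DZ groups overlapped. Its difference in LZ cells was 0.57 ± 0.25. The lowest differences in LZ cells by p were those of Dhcr7 (-0.23 ± 0.17, and -0.05 without LZ_low replicate 3) and Fads1. Fads1 had 6.55, 5.93 and 5.71 in LZ_high arrays, against 6.40, 6.33 and 6.11 in LZ_low arrays, and 6.64, 6.34 and 6.64 in DZ_high arrays, against 6.46, 6.13 and 6.48 in DZ_low arrays. Its LZ_high arrays spanned the LZ_low ones, with a difference of -0.22 ± 0.22, which was -0.04 without LZ_high replicate 3.

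In DZ cells the medians were higher at high affinity, 0.22 for sterol genes, 0.37 for fatty acid genes and 0.21 for the regulators, and 26 of 31 members were above 0, against 50.4% of all tested genes. These values moved with single arrays. Without DZ_low replicate 2 the sterol median was 8.33e-05, the fatty acid median 0.14 and the regulator median 0.02, and 18 of 31 members were above 0. Without DZ_high replicate 3 the same medians were 0.13, 0.15 and 0.04, with 25 of 31 members above 0. By set, the median over the 31 members was -0.11, 0.50 and 0.22 in sets 1, 2 and 3, against -0.13, 0.07 and 0.0 over all tested genes. By limma 0 of 31 members and 0% of all tested genes passed, and 2 members were higher at an unadjusted p below 0.05 (0.937% of all tested genes), Fdps (0.58 ± 0.19) and Fads2 (1.08 ± 0.42). The value for Fads2 was 0.51 without DZ_high replicate 3. The members below 0 with the smallest p were Insig2 (-0.26 ± 0.30, and 0.05 without DZ_high replicate 3) and Sc5d (-0.17 ± 0.21, and -0.0060 without DZ_low replicate 3).

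Over both zones together, Fdps had the smallest p, with 0.50 ± 0.13 (limma adjusted p = 0.849; higher in 6 of 6 pairs). Elovl6 (0.52 ± 0.18) and Msmo1 (0.32 ± 0.13) were also higher in 6 of 6 pairs and Fads2 (0.73 ± 0.30, and 0.45 without DZ_high replicate 3) in 4 of 6. Of the 31 members 0 passed, beside 0% of all tested genes, and these 4 had an unadjusted p below 0.05, against 2.21%. The G2 and M phase genes had a median high minus low difference of 0.50 in LZ cells and of 0.08 in DZ cells. In LZ cells 23 of 23 of these genes were above 0, against 49.7% of all tested genes, and 0 were called. Their part in the differences of Fdps, Elovl6 and Msmo1 was not tested.

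**Figure D5:**
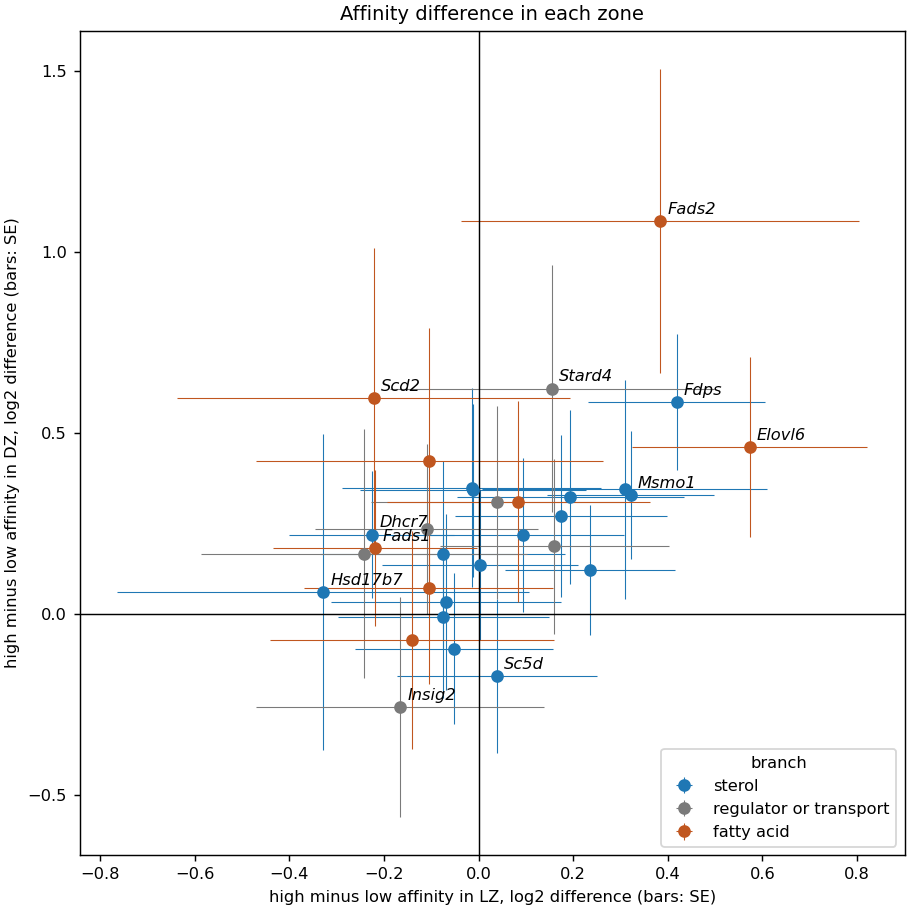
The log2 difference high minus low affinity of each tested member in LZ cells (horizontal axis) and in DZ cells (vertical axis), coloured by branch, with bars of 1 SE. Fads2 lies highest and Elovl6 farthest right. On the LZ axis 15 of 31 points lie above 0 (25 without LZ_low replicate 3), against 49.7% of all tested genes over 12 arrays. On the DZ axis 26 of 31 lie above 0 (18 without DZ_low replicate 2), against 50.4% over 12 arrays.

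Other genes of lipid metabolism were read from 7 further lists, and 0 of their members were called in LZ minus DZ, with the replicate block or without it. Other steps of sterol synthesis and isoprenoid use had a median of -0.02 over 5 tested genes, and genes of sterol uptake and lysosomal release one of -0.07 over 7, with Npc1, which moves cholesterol out of lysosomes, at 0.36 ± 0.15 (adjusted p = 0.643). The SREBP processing list had a median of -0.20 over 9 genes. In that list Sec24a, a coat protein gene of vesicles that leave the endoplasmic reticulum, was at -0.52 ± 0.18 (adjusted p = 0.415), and Fbxw7, part of a ubiquitin ligase that removes active SREBPs, at 0.60 ± 0.25 (adjusted p = 0.613), which was 0.35 without DZ_high replicate 3. Sterol efflux and LXR target genes were above 0 in 7 of 7 cases, against 49.0% of all tested genes, with a median of 0.11. At high affinity alone 3 of 7 were above 0 (median -0.0029), and at low affinity 7 of 7 (median 0.26). Further fatty acid synthesis genes had a median of 0.07 over 11, with the NADPH-producing enzyme gene Idh1 at -1.05 ± 0.40 (adjusted p = 0.529), which was -0.63 without LZ_high replicate 3. Fatty acid activation and storage had a median of -0.01 over 12 genes, and fatty acid oxidation one of -0.01 over 17, with Decr1 at 0.34 ± 0.13 (adjusted p = 0.556). None of these medians was as large as that of the sterol branch, and the difference between lists was not tested.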

How the data were processed

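The deposited values were log2 expression values per probe set made by the authors with RMA. The submitters' processing notes name RMA and the build mm8 alone. The log base was read from the range of values, 1.99 to 13.74. Other steps are not given in the sources used here. Of 28853 probe sets, 21789 carry 1 symbol, 1621 several and 5443 none. Testing required 3 or more of 12 arrays at or above the array's own median. Group means over 12 arrays were fitted with limma 3.58.1 in R 4.3.3 (lmFit, eBayes, two-sided), adjusted by Benjamini-Hochberg over 11206 genes and called below 0.05; the scripts were tested on simulated data. The number of arrays limits the precision.

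The members, lists and tests were chosen with earlier results of these data known. Values per array were given for the 6 sterol and 3 fatty acid genes with the smallest p in LZ minus DZ, for all regulators, and for the 2 members with the smallest p in each direction of each affinity comparison. Other lists named up to 3 genes by p. Alternatives covered the block, the filter, scaling, variance model, array weights, probe set rule and left-out arrays.

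Matched sets are the shared suffixes of the sample descriptions, read as a shared set. With group means removed, the correlation across genes exceeded 0.1 in 17 of 18 within-set pairs of arrays (median 0.41, lowest -0.071). The fit reported first nevertheless has no term for the set, and the block is given as an alternative. The choice matters for genes that differ between sets. For Scd1 in LZ minus DZ the SE was 0.21 without the block and 0.10 with it.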

Additional observations from a re-analysis of the deposited data

How the results depend on the processing

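The count of members called in LZ minus DZ was 0 in the fit reported first, 2 with the replicate block (Msmo1, Scd1), 1 with a random replicate block (Msmo1), 2 after quantile normalization (Msmo1, Sc5d), 6 with array weights (Hmgcs1, Fdft1, Cyp51, Msmo1, Sc5d, Acaca; limma's weights did not converge), 1 with probe sets averaged per gene (Acaca), 1 without matched set 3 (Acaca, 0.92, adjusted p = 0.0444), 0 without set 3 but with the block (Acaca, adjusted p = 0.0544) and 0 to 1 when 1 array was left out (Acaca without LZ_high replicate 3, Msmo1 without DZ_low replicate 3). Array weights also gave 1 call at high affinity (Msmo1) and 1 in high minus low affinity of both zones (Elovl6). Over all genes LZ minus DZ had 47 calls, 135 with the replicate block, 110 with a random block, 80 after quantile normalization, 28 after centring, 327 with array weights, 87 without set 3 (95 with the block) and 12 to 67 when 1 array was left out. At high affinity the count of 4 became 9 with the replicate block, 12 with a random block and 146 with array weights, and at low affinity the count of 4 became 25, 18 and 40. In high minus low affinity array weights called 103 genes in LZ and 52 in both zones, where the fit reported first called 0. The replicate block changed no other call of a member in these comparisons.

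In the alternatives other than leaving out 1 array, the sterol median of LZ minus DZ ranged from 0.28 to 0.50. At high affinity alone it ranged from 0.18 to 0.43 in these alternatives. The fatty acid median of LZ minus DZ was 0.0212 with array weights. That of high minus low affinity in LZ ranged from -0.20 to 0.21 when 1 array was left out, with 0.21 without LZ_low replicate 3. Of 31 members, 25 kept the sign of LZ minus DZ in the 23 alternatives. Mvk was -0.19 with array weights and -0.0947 without matched set 3 (with or without the block), Fasn -0.11 with array weights and Ebp 0.0075 without matched set 3. When 1 array was left out, Mvk ranged from -0.0862 to 0.0905, Mvd from -0.0067 to 0.29, Hsd17b7 from -0.13 to 0.26, Fasn from -0.14 to 0.22, Srebf1 from -0.0322 to 0.21, and Insig2 in high minus low affinity in DZ from -0.47 to 0.0508. Pmvk ranged from 0.15 to 0.37, Tm7sf2 from 0.19 to 0.38, Elovl6 from -0.27 to -0.0262, Insig2 from 0.0395 to 0.33 and Scap from 0.0850 to 0.28 in LZ minus DZ. Left-out arrays for regulator medians, counts above 0, single affinities and genes outside the list were chosen after seeing the data. Among these Abcg1 in high minus low affinity in DZ ranged from -0.15 to 0.0315, with 0.0315 and 0.0135 without DZ_high replicates 1 and 2 and 0.0131 without DZ_low replicate 2. The causes were not tested. The number of arrays limits the precision, so a member that missed the threshold is not shown to be level.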

Other observations

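The oxysterol receptors (LXRs) switch on genes of sterol efflux when sterols are plentiful. Most tested genes of the sterol efflux and LXR target list had lower values at high affinity in LZ cells. The median log2 difference over 7 tested genes was -0.50, against -0.0021 over all tested genes. Of the 7, 5 were below 0 and 2 above, Rxrb (0.05) and Lpcat3 (0.03), where 49.7% of all tested genes were above 0. By limma 0 genes passed without or with the replicate block. The cholesterol transporter genes Abcg1 (-0.50 ± 0.17, SE) and Abca1 (-0.61 ± 0.26) and the ubiquitin ligase gene Mylip (-0.82 ± 0.29) were lower in 3 of 3 matched pairs, each with an adjusted p of 0.999. Their unadjusted p-values were 0.0141, 0.0412 and 0.0154. In DZ cells the same genes were at -0.03, -0.40 and -0.46, with Abca1 at -0.17 without DZ_low replicate 1 and Mylip at -0.29 without DZ_high replicate 2. These genes were chosen after their values were seen.

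Tmem97, a sterol-responsive membrane protein gene of the SREBP processing list, was higher at high affinity by 0.63 ± 0.22 in LZ cells (adjusted p = 0.999) and by 0.54 ± 0.22 in DZ cells (adjusted p = 1), in 3 of 3 pairs of each zone, and was also chosen after its values were seen.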
